A study of Mus musculus with 6 samples.

Results

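Fc gamma receptors bind the constant region of IgG on opsonised particles and immune complexes. The 7 genes described here encode the mouse receptors (Fcgr1, Fcgr2b, Fcgr3 and Fcgr4), their shared signalling chain (Fcer1g), the neonatal Fc receptor (Fcgrt) and the kinase Syk. They were taken by symbol, as a family picked with earlier results of these data known, from 30445 genes in a table of read counts, and all 7 were found and had enough counts to be tested. Wild-type mouse cells gave 6 RNA libraries: 2 from induced macrophages (iMac), 2 from what the labels call myeloid-like cell complex (MCC) and 2 from embryonic fibroblasts (MEF). The series title names c-Myc as the factor that reprograms fibroblasts. The labels say neither how the MCC and the iMac were made nor from which cultures or animals they came, and they state no dose, time or age. The genotype label is the same in all 3 groups.

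In macrophages, Fcgr1, Fcgr3 and Fcgr4 are activating receptors. They have no signalling motif of their own in mice and rely on the Fc receptor gamma chain from Fcer1g, whose tyrosines are phosphorylated by Src-family kinases and then bind Syk. Syk passes the signal through adaptors, phospholipases and PI3-kinase to the actin machinery that closes the phagocytic cup. Fcgr2b is the inhibitory receptor and recruits phosphatases, chiefly the lipid phosphatase from Inpp5d. Fcgrt works apart from this chain: with beta-2-microglobulin it binds IgG at acid pH in endosomes and returns it to the surface.

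Fcgr2b, Fcgr4, Fcgr3 and Fcer1g lie in one stretch of chromosome 1 in GRCm38, the assembly called mm10. GENCODE release M21 places Fcgr2b at chr1:170958617-170976547 on the minus strand, Fcgr4 at chr1:171018920-171029761 on the plus strand, Fcgr3 at chr1:171051174-171064935 on the minus strand and Fcer1g at chr1:171229572-171234365 on the minus strand. The other genes are Fcgr1 at chr3:96282909-96293969 (minus strand), Fcgrt at chr7:45092990-45103851 (minus strand) and Syk at chr13:52583173-52648792 (plus strand).

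The bases before the start sites of the activating receptors are shown because 3 of the 7 genes, Fcgr1, Fcgr3 and Fcgr4, hold the motif GAGGAAG there, a purine-rich core of the kind that PU.1 is known to bind, and they were picked for that match. PU.1, encoded by Spi1, is the main transcription factor of the myeloid lineage. In each the motif stands on the opposite strand, so that it reads CTTCCTC (capitals) in the 120 bases before the RefSeq start (GRCm38.p6):
Fcgr1, chr3:96293970-96294089, minus strand: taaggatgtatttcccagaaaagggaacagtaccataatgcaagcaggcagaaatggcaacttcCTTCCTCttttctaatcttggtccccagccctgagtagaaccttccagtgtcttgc
Fcgr3, chr1:171059404-171059523, minus strand: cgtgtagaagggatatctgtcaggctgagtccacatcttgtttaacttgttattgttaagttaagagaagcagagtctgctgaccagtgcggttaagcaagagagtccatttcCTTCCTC
Fcgr4, chr1:171018806-171018925, plus strand: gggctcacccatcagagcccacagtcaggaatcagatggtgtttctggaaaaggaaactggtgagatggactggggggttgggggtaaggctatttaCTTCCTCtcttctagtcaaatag

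The match ran from -56 to -50 in Fcgr1, from -7 to -1 in Fcgr3 and from -23 to -17 in Fcgr4, counted from the start site; the RefSeq start of Fcgr3 lies inside the gene's GENCODE span. Windows of 250 bases before and 50 bases after the start were searched on both strands for all 7 genes. GAGGAAG was absent from the windows of Fcgr2b, Fcer1g, Fcgrt and Syk, and 15.4% of 27025 genes held it in a window of that kind. In Fcgr1 and Fcgr3 it lies inside a longer run of 14 bases, ttcCTTCCTCtttt, which is the longest stretch their windows share. The palindromic pattern TTCNNNGAA, the form of an interferon gamma-activated site, was found in Fcgr1 alone of the 7 genes, as ttcccagaa from -109 to -101, and 9.55% of genes held it. A shorter core, GGAA, which GAGGAAG contains, stood in 96.5% of genes. These matches describe letters in a window and were not tested as binding sites. Spi1 itself had 368 and 307 CPM in the iMac libraries, 305 and 371 CPM in the MCC libraries, and 0 and 0.0258 CPM in the MEF libraries. CPM is a gene's count per 1000000 counts of the library, after scaling.

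Library totals lay between 34389817 and 39174367 counts, and 18613 genes were tested. Markers set against the labels ran as follows. The 10 macrophage markers summed to 23620 and 19650 CPM in iMac, 13790 and 13080 CPM in MCC, and 25.9 and 51.9 CPM in MEF. Most of the sum in iMac was Lyz2, with 15080 and 11720 CPM in iMac and 6290 and 6008 CPM in MCC. Adgre1, Csf1r, Cd68 and Itgam were also higher in both iMac libraries than in either MCC library. Mrc1 was lower, with 1361 and 1363 CPM in iMac and 2216 and 1995 CPM in MCC. Mertk, Spi1, C1qa and Cd14 overlapped between iMac and MCC. The 10 fibroblast markers summed to 14.7 and 11.4 CPM in iMac, 886 and 76.9 CPM in MCC, and 20050 and 8515 CPM in MEF, so the MCC libraries differ from each other in fibroblast RNA. Markers of other cells that carry Fc receptors varied: the 4 of 8 NK-cell markers analysed here had no count in either iMac library, and the 5 B-cell markers summed to at most 2.25 CPM in any library. Of these Pax5 had no count in iMac or MCC, while Cd22 had 1.85 and 1.39 CPM in iMac, 1.87 and 1.07 CPM in MCC, and 0 CPM in both MEF libraries. Ly6g and Mpo (neutrophils) had no count in iMac or MCC, and S100a8 and Elane had at most 1.09 CPM. The neutrophil sum of 110 and 112 CPM in iMac, against 62.4 and 76.9 CPM in MCC and 0.271 and 0.541 CPM in MEF, was nearly all Csf3r. The 6 endothelial markers summed to 78.8 and 72.2 CPM in iMac, 23.9 and 23.9 CPM in MCC, and 11.6 and 15.2 CPM in MEF. Most of the sum in iMac was Stab2, a gene of sinusoidal endothelium, a cell type that carries Fcgr2b: it had 69.7 and 64.0 CPM in iMac, 12.7 and 9.84 CPM in MCC, and 0.217 and 0.0515 CPM in MEF. Of the other endothelial markers, Tek had at most 1 read in each iMac and MCC library. Pecam1 had 3.55 and 3.50 CPM in iMac, 2.42 and 2.70 CPM in MCC, and 0.434 and 0.438 CPM in MEF. Kdr had 4.90 and 3.86 CPM in iMac, 4.76 and 5.78 CPM in MCC, and 5.58 and 7.19 CPM in MEF. Cdh5 and Lyve1 reached 0.633 and 0.179 CPM in iMac, 1.34 and 4.17 CPM in MCC, and 3.555 and 2.344 CPM in MEF. In such bulk RNA, fewer cells of a type and less RNA per cell cannot be told apart. The labels do not tie the 2 libraries of a group to separate cultures, so p-values measure only the spread between these libraries, which may be technical.

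All 7 genes were higher in iMac and in MCC than in MEF. The 4 receptors and Fcer1g were among the more abundant messages of iMac and MCC, against a few reads each in MEF. Both comparisons use the same MEF libraries. In iMac against MEF, 7 of 7 genes rose (edgeR quasi-likelihood test, Benjamini-Hochberg adjusted p under 0.05), where 25.1% of all genes tested rose. In MCC against MEF, 7 of 7 rose as well, where 23.4% of all genes tested did. The median log2 fold change of the 7 genes was 11.14 in iMac and 10.69 in MCC against MEF, beside -0.06 and -0.05 over all genes tested in the same comparisons. In both comparisons all 7 remained past the threshold under every alternative fit that was run.

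**Figure D1:**
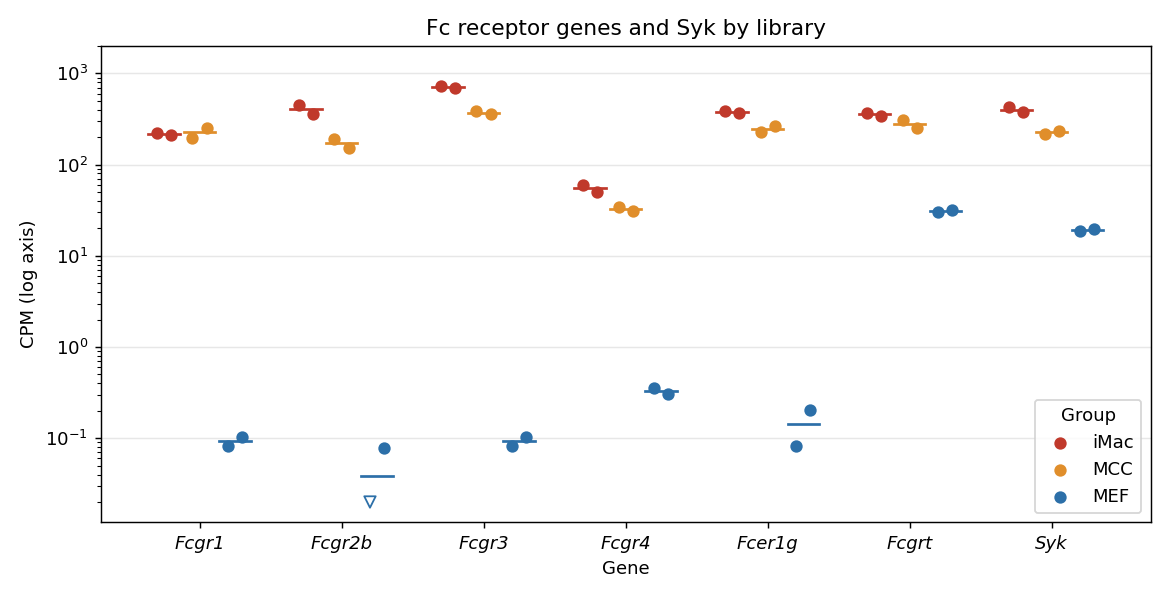
CPM on a log axis for each of the 7 genes; each point is a library, with iMac, MCC and MEF from left to right within a gene, and the line is the group's mean. The open triangle marks the MEF library with 0 counts of Fcgr2b, drawn at the foot of the axis. Every iMac and MCC library lies far above the MEF libraries, and iMac and MCC overlap for Fcgr1.

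Fcgr3 encodes a low-affinity activating receptor and, per length of gene, had the highest level of the 4 receptors in iMac and MCC. It had 719.7 and 684 CPM in iMac, 386.5 and 354 CPM in MCC, and 0.0813 and 0.103 CPM in MEF, the last standing for 3 and 4 reads. The groups do not overlap, and iMac is above MCC in every library. The log2 fold change was 12.84 ± 0.18 (SE) in iMac and 11.92 ± 0.18 in MCC against MEF (edgeR adjusted p 4.18e-05 and 4.68e-05).

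Fcgr1 encodes the high-affinity receptor, which can hold monomeric IgG. Its level was 223 and 211 CPM in iMac, 198 and 252 CPM in MCC, and 0.0813 and 0.103 CPM in MEF (again 3 and 4 reads). Here the iMac libraries fall between the MCC libraries. The log2 fold change was 11.14 ± 0.24 in iMac and 11.20 ± 0.24 in MCC against MEF (edgeR adjusted p 5.01e-05 and 6.08e-05).

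Fcgr4, an intermediate-affinity receptor found in mice on monocytes, macrophages and neutrophils, had the lowest mean level of the 4 per length of gene in iMac. Its level was 60.2 and 49.9 CPM in iMac, 34.6 and 31.0 CPM in MCC, and 0.352 and 0.309 CPM in MEF (13 and 12 reads). In MEF it had the highest level per length of the 4. Its fold change was 164.8 in iMac and 98.2 in MCC (log2 7.36 ± 0.20 and 6.62 ± 0.20, edgeR adjusted p 6.7e-05 and 9.96e-05).

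Fcgr2b, the inhibitory receptor, had 449.7 and 357 CPM in iMac, 192 and 150.3 CPM in MCC, and 0 and 0.0773 CPM in MEF. All 3 MEF reads came from 1 library. Over the group, the ratio to those 3 reads was 10190 in iMac (95% counting interval 3485 to 49400) and 4328 in MCC (1481 to 20990). The edgeR test called it in both (adjusted p 0.000216 and 0.000323); its fitted log2 value depends on the prior count and on which MEF library is kept, and was 16.78 in iMac and 15.63 in MCC without MEF replicate 2, and 12.29 and 11.06 without MEF replicate 1. Of the 50-base stretches in Fcgr3 transcripts, 9.58% also occur in Fcgr2b, and 2.54% of the 100-base stretches do, so some reads of this pair are uncertain, and the labels do not say how the authors' counting treated them. The summed counts of Fcgr2b and Fcgr3 gave a log2 fold change of 13.00 in iMac and 11.97 in MCC against MEF. Of the 100-base stretches in Fcgr2b transcripts, 4.3% also occur in other genes, most of all in Cplx2 (2.17%), then in Gm47409 and Rab3c. By position, 2.68% of the exonic bases of Fcgr2b overlap Gm38204 on the opposite strand. Fcgr1, Fcgr4, Fcer1g, Fcgrt and Syk share no stretch of 50 bases with another annotated gene.

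Fcer1g, the common gamma chain, had 383 and 366 CPM in iMac, 228 and 264 CPM in MCC, and 0.0813 and 0.206 CPM in MEF (3 and 8 reads). The order iMac, MCC, MEF holds in every library. The log2 fold change was 11.30 ± 0.35 in iMac and 10.69 ± 0.34 in MCC against MEF (edgeR adjusted p 8.91e-05 and 0.000117). Leaving out MEF replicate 2 gave 12.08 and 11.55, and leaving out MEF replicate 1 gave 10.81 and 10.20.

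Syk and Fcgrt behaved apart from the receptors in one respect, that MEF already had them. Syk had 427 and 376 CPM in iMac, 219 and 232 CPM in MCC, and 18.6 and 19.6 CPM in MEF, where this is 686 and 759 reads. It rose 21.05-fold in iMac and 11.82-fold in MCC (log2 4.40 ± 0.12 and 3.56 ± 0.11, edgeR adjusted p 6.48e-05 and 0.000117). Fcgrt had 367 and 344 CPM in iMac, 311 and 249 CPM in MCC, and 30.2 and 32.0 CPM in MEF (1113 and 1242 reads). It rose 11.43-fold in iMac and 9.0-fold in MCC (log2 3.52 ± 0.15 and 3.17 ± 0.14, edgeR adjusted p 0.000172 and 0.000267). These are the smallest rises of the 7, and the only members above 1 CPM in MEF.

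**Figure D2:**
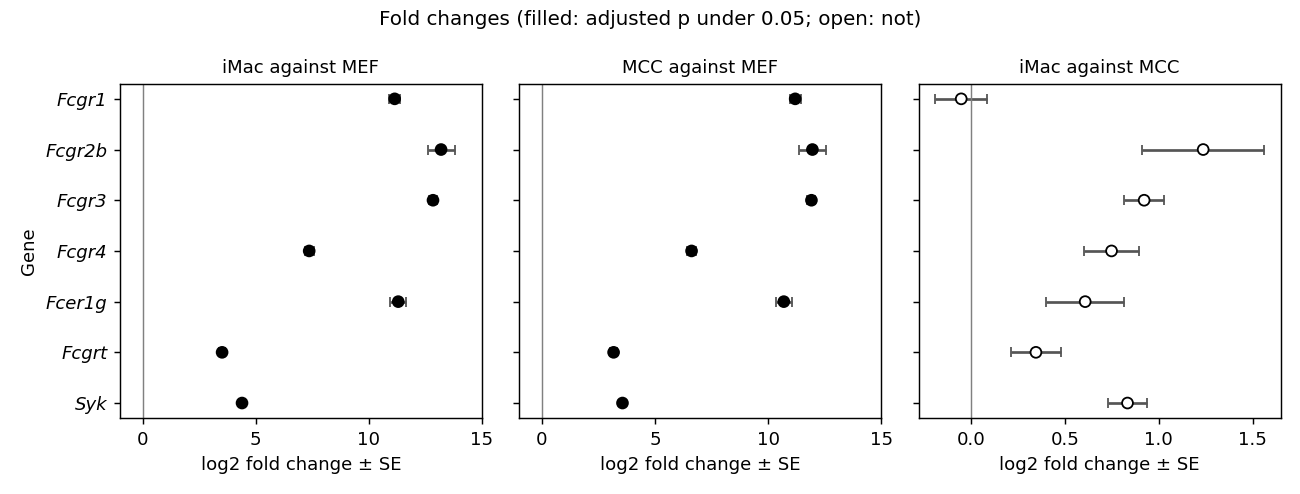
Log2 fold change with its SE for the 7 genes in iMac against MEF, MCC against MEF and iMac against MCC, from edgeR; filled points have an adjusted p under 0.05 and open points do not. All points of the first 2 panels are filled, from 3.17 to 13.20, and all points of the third are open, from -0.05 to 1.24, on a shorter axis.

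Set per length of gene, as CPM per kilobase of exon, the order of the messages within a cell can be read. In iMac, Fcer1g (429 ± 14.1) and Fcgr3 (404 ± 14.7, SD, n = 2 each) led. Their library values were 439 and 419 for Fcer1g and 415 and 394 for Fcgr3, so that Fcer1g was above Fcgr3 in each library, with means further apart than either SD. Fcgrt followed at 169 ± 7.77, then Fcgr1 at 83.8 ± 3.27 and Fcgr2b at 69.6 ± 11.3. Fcgr4 (43.8 ± 5.81) and Syk (42.9 ± 3.86) overlapped at the end. By the same measure Fcer1g stood above 99.5% of 18229 genes in iMac, and Syk above 93.9%.

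In MCC the order was much the same: Fcer1g at 281 ± 28.6, Fcgr3 at 213 ± 13.1, Fcgrt at 133 ± 20.8 and Fcgr1 at 86.9 ± 14.7 CPM per kilobase. Fcgr4 (26.1 ± 2.05) overlapped both Fcgr2b (29.6 ± 5.09) and Syk (24.1 ± 1.04), while both Fcgr2b values lay above both Syk values. In MEF the order was another one, with Fcgrt at 14.8 ± 0.615 and Syk at 2.04 ± 0.0724 ahead of Fcgr4 at 0.263 ± 0.0243, and the other 4 genes between 0.00667 and 0.164. Dividing by the longest transcript in place of the union of exons moved Fcgr2b above Fcgr1 in iMac (114 against 83.8 CPM per kilobase). It also moved Syk above Fcgr4 there (74.9 against 43.8). In MCC it put Fcgr4 (27.5 and 24.6) below both Fcgr2b (54.2 and 42.4) and Syk (40.8 and 43.3). Fcgr2b and Syk then overlapped in MCC. Those places in the order therefore rest on the length used.

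The 4 receptor genes were mixed in other proportions in iMac than in MCC. Fcgr3 held most of the summed level of the 4 receptors per length, with 66.2% and 68.3% in iMac and 61.9% and 58.0% in MCC. Fcgr1 held 13.7% and 14.1% in iMac against 21.3% and 27.6% in MCC. The share of Fcgr2b was 12.4% and 10.7% in iMac against 9.21% and 7.38% in MCC, and that of Fcgr4 was 7.65% and 6.89% in iMac against 7.65% and 7.0% in MCC. The libraries of iMac and MCC do not overlap for Fcgr3, Fcgr1 and Fcgr2b, and do for Fcgr4. The shares of a library add to a whole, so they are not independent, and they were not tested. In CPM, 27.7% of all genes tested were higher in iMac than in MCC without overlap, and 27.9% were lower.

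**Figure D3:**
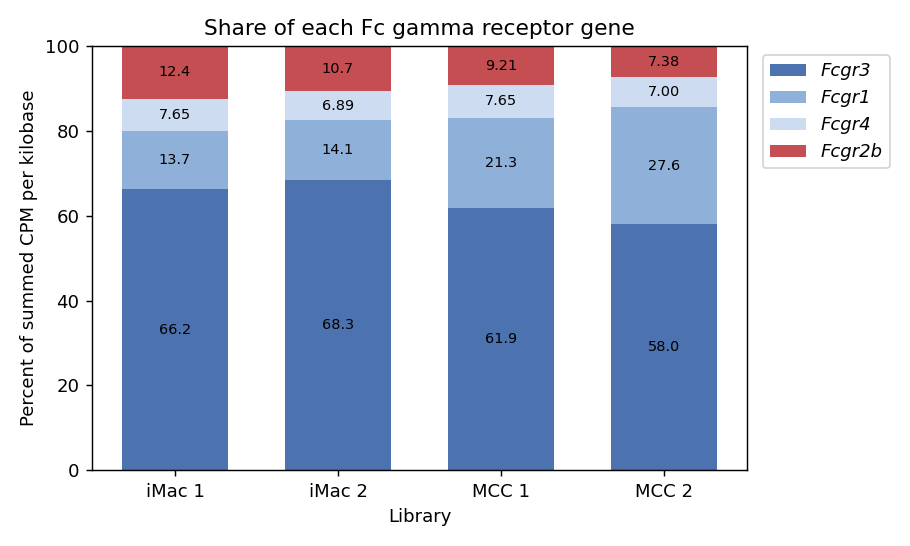
Share of each receptor gene in the summed CPM per kilobase of Fcgr3, Fcgr1, Fcgr4 and Fcgr2b, as a stacked bar for each iMac and MCC library, in percent. Fcgr3 is the main part of every bar, the Fcgr1 part is wider in both MCC bars, and the Fcgr2b part is wider in both iMac bars.

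The balance of inhibitory to activating receptor message can be put as a ratio per length. Fcgr2b to Fcgr1 was 0.902 and 0.757 in iMac and 0.433 and 0.267 in MCC, a change of 1.28 on the log2 scale. With the longest transcript as length the ratio was 1.47 and 1.24 in iMac and 0.708 and 0.436 in MCC, with the same change, so whether it is above or below 1 in iMac rests on the length used. Fcgr2b to the sum of Fcgr1, Fcgr3 and Fcgr4 was 0.142 and 0.120 in iMac and 0.102 and 0.0796 in MCC, a change of 0.53. Against Fcgr3 alone the change was 0.32, with ratios of 0.187 and 0.157 in iMac and 0.149 and 0.127 in MCC. The ratio of the gamma chain Fcer1g to the sum of the activating receptors was 0.800 and 0.813 in iMac and 0.799 and 0.925 in MCC. These ratios were not tested. For each ratio of Fcgr2b named here the groups do not overlap, and these ratios share the same Fcgr2b values. In CPM, 27.7% of all genes tested were higher in iMac than in MCC without overlap. For Fcer1g the lower MCC value lies beside the iMac values. With the longest transcript as length its ratio was 0.840 and 0.852 in iMac and 0.855 and 1.003 in MCC. Both MCC values then lay above both iMac values, so the overlap rests on the length used. In CPM, 27.9% of all genes tested were lower in iMac than in MCC without overlap.

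In iMac against MCC, 6 of the 7 genes had higher values in both iMac libraries than in either MCC library, where 27.7% of all genes tested did so, and none of the 7 passed the adjusted threshold. By the edgeR quasi-likelihood test 0 of 7 were called, where 0.0215% of all genes tested (4 genes) were called in either direction. At an unadjusted p under 0.05 there were 6 of 7, all higher in iMac, where 7.69% of all genes tested were higher at that level. DESeq2 called 5 of 7 and limma-voom 2 of 7 (Fcgr3 and Syk), all higher in iMac, where these tools called 6.41% and 0.543% of all genes as higher. With only the iMac and MCC libraries in the edgeR fit, 5 of 7 were called, where 4.36% of all genes were higher. The call therefore rests on the tool and on the libraries in the fit. The median log2 fold change of the 7 was 0.75, beside -0.02 over all genes tested.

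The difference was widest for Fcgr2b, at log2 1.24 ± 0.32 (edgeR p 0.0119, adjusted p 0.184), from means of 403 ± 65.7 CPM in iMac and 171 ± 29.5 CPM in MCC (SD, n = 2 each). Fcgr3 was next, at 0.92 ± 0.10 (edgeR adjusted p 0.0756; 702 ± 25.6 CPM in iMac and 370.4 ± 22.8 CPM in MCC), and Syk followed at 0.83 ± 0.10 (edgeR adjusted p 0.0791; 402 ± 36.2 CPM in iMac and 225 ± 9.70 CPM in MCC). Fcgr4 had 0.75 ± 0.15 and Fcer1g 0.61 ± 0.21 (edgeR adjusted p 0.139 and 0.241). Fcgrt had 0.34 ± 0.13 (edgeR adjusted p 0.269) and depended on 1 library: its log2 fold change was 0.06 without MCC replicate 2 and 0.49 without MCC replicate 1. Fcgr1 stood apart with -0.05 ± 0.14 (edgeR adjusted p 0.881), from 217 ± 8.46 CPM in iMac and 225 ± 38.0 CPM in MCC.

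The summed fibroblast markers, at most 14.7 CPM in iMac and at least 76.9 CPM in MCC, moved with this comparison. Without MCC replicate 1, which had more of them, the log2 fold change in iMac against MCC was 1.40 for Fcgr2b and 0.81 for Fcgr4, with 0.48 for Fcer1g and -0.24 for Fcgr1. The summed endothelial markers, mostly Stab2, were higher in both iMac libraries than in either MCC library. The part of either marker list in the result was not tested. The macrophage markers had a median log2 difference of 0.26 between iMac and MCC. With library totals left unscaled the median of all genes moved to -0.16, and the log2 fold change in iMac against MCC was 1.10 for Fcgr2b, 0.78 for Fcgr3 and -0.19 for Fcgr1.

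The genes whose values over the 6 libraries were most like each member were found by the root mean square difference of centred log2(CPM + 0.5) values, where a lower figure is more alike. Since the libraries fall into 3 groups, likeness here is mostly likeness of the group levels. Closest to Fcgr1 was Vav1 (0.112), the exchange factor that acts just after Syk, with 229.7 and 226 CPM in iMac, 209.6 and 222 CPM in MCC, and 0.0271 and 0.129 CPM in MEF. Closest to Fcgr2b was Clec10a (0.114), a galactose-binding lectin of macrophages and dendritic cells, with 509.6 and 453 CPM in iMac, 203 and 155 CPM in MCC, and 0 and 0.103 CPM in MEF. Fcgr3 was closest to Adgre1 (0.171), the F4/80 antigen, and to Tyrobp (0.185), a signalling chain related in function to Fcer1g. Fcer1g was closest to Nrros (0.0763), Syk to Dclre1c (0.0775) and Fam20c (0.113), Fcgr4 to Cd48 (0.140) and Fcgrt to Apoc4 (0.122). Apoc4 had 5.76 and 6.45 CPM in iMac, 5.07 and 3.69 CPM in MCC, and 0 CPM in both MEF libraries. Its log2 fold change against MEF was 10.8 in iMac and 10.3 in MCC, where Fcgrt had 3.52 and 3.17. Cd48 also had 0 CPM in both MEF libraries. With a pseudocount of 1, 8 of the 21 genes named by this rule (3 for each member) stayed among the 3 closest, and Cd48 and Apoc4 did not. Efhd2, next after Apoc4 for Fcgrt (0.127), stayed, with log2 fold changes against MEF of 3.56 in iMac and 3.08 in MCC.

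Around the receptors, 76 genes in 7 lists of the pathway were tested. In iMac against MEF, 53 of 76 rose and 12 fell, where 25.1% of all genes tested rose and 32.4% fell. In MCC against MEF, 52 rose and 12 fell, where 23.4% of all genes tested rose and 29.6% fell. The lists were chosen with macrophage biology and earlier results of these data in view, so their direction is no independent evidence.

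**Figure D4:**
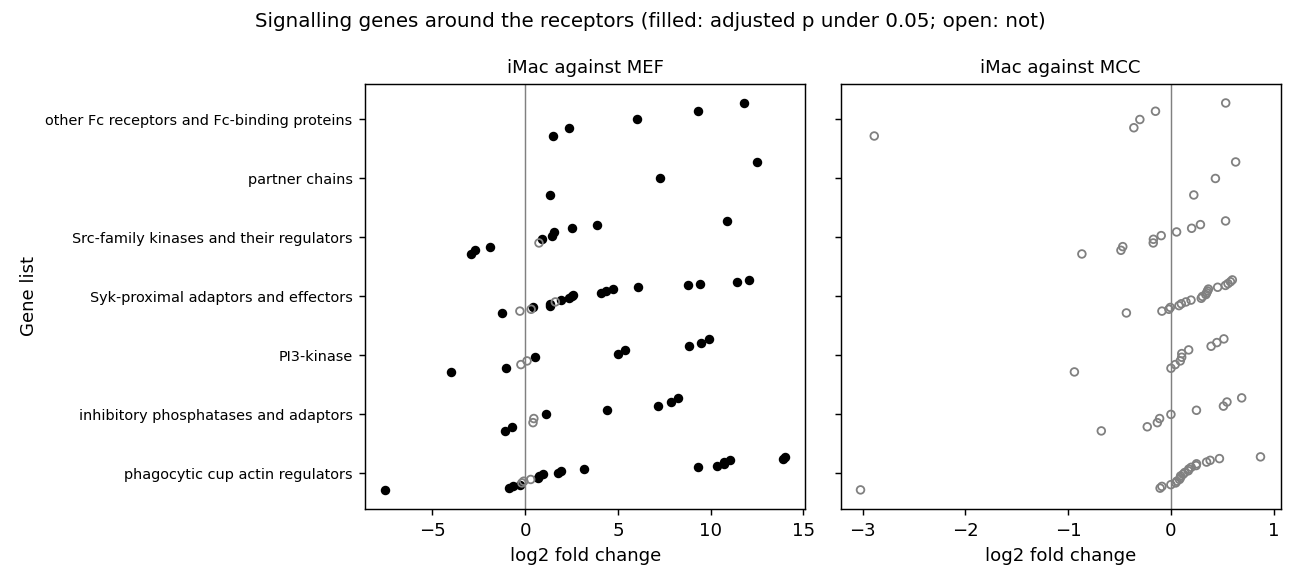
Log2 fold change of each tested gene of the 7 pathway lists in iMac against MEF (left) and in iMac against MCC (right, on a shorter axis); each point is a gene, filled where the edgeR adjusted p was under 0.05. Most points on the left are filled and right of 0, with a few filled points left of 0 in the Src-family kinase, Syk-proximal, PI3-kinase, phosphatase and actin lists, and no point on the right is filled.

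Of 13 other Fc receptors and Fc-binding proteins, 5 were tested and all 5 rose in both comparisons with MEF. Their median log2 fold change was 6.06 in iMac and 6.21 in MCC, or 2.51 and 2.68 with the genes at 0 in MEF set at their lower bound. Fcrls is an Fc receptor-like gene known as a microglial marker in mice. It had 53.2 and 68.0 CPM in iMac, 607 and 290.0 CPM in MCC, and 0 and 0.0258 CPM in MEF, where this is 1 read. It was lower in both iMac libraries than in either MCC library, which 27.9% of all genes tested were, at log2 -2.89 ± 0.42 (edgeR p 0.000884, adjusted p 0.0956). DESeq2 called 1 gene of this list as lower in iMac than in MCC, where it called 14.7% of all genes tested in either direction. In edgeR 1 gene of the list was called as lower with no filter and with only the groups compared. Counts over all genes under those fits are given at the end. Fcrl1, a B-cell gene, was not counted in MEF; the level was at least 55.7-fold higher in iMac and at least 71.9-fold higher in MCC, against a floor of 3 counts over the group. Fcrla and Fcrlb were at or below 1.37 CPM on average in iMac and MCC. Fcrla was not called in iMac without iMac replicate 1 or 2 (edgeR adjusted p 0.0558 and 0.0845) or without MEF replicate 1 or 2 (0.0541 and 0.0589), nor in MCC without MCC replicate 1 (0.0559) or without MEF replicate 1 or 2 (0.0558 and 0.0574). Trim21, the cytosolic Fc receptor and ubiquitin ligase, had 19.6 ± 0.389 CPM in iMac, 13.5 ± 2.99 CPM in MCC and 6.93 ± 0.405 CPM in MEF; in MCC it was not called without MEF replicate 1 (edgeR adjusted p 0.0587), where 3 of the 5 genes were called. Ms4a2, Fcer2a, Fcmr, Fcamr and Fcrl5 were below the filter on low counts, and the other 3 were not analysed here.

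The partner chains rose in 3 of 3 tested cases in both comparisons with MEF. Tyrobp, the DAP12 chain, had 725 ± 22.7 CPM in iMac, 468.5 ± 49.7 CPM in MCC and 0.120 ± 0.0604 CPM in MEF (SD, n = 2 each). In iMac against MCC it had a log2 fold change of 0.63 ± 0.18, near that of Fcer1g, and was not called (edgeR adjusted p 0.206). DESeq2 called 1 partner chain as higher in iMac than in MCC, where it called 6.41% of all genes tested as higher. With only the groups compared edgeR also called 1 as higher, where 4.36% of all genes were higher. B2m, the light chain that Fcgrt needs, was present in all groups, with 924 ± 75.6 CPM in iMac, 791 ± 167 CPM in MCC and 359 ± 86.8 CPM in MEF. Its log2 fold change of 1.37 ± 0.24 in iMac was smaller than the 3.52 of Fcgrt, and it was not called without iMac replicate 1 (1.30, edgeR adjusted p 0.0508). Hcst, the DAP10 chain, reached 2.55 ± 0.230 CPM in iMac and 1.89 ± 0.243 CPM in MCC against 0.0136 ± 0.0192 CPM in MEF.

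Of the Src-family kinases and their regulators, 6 of 10 rose and 3 fell in iMac against MEF, and 5 rose and 3 fell in MCC. The family members themselves divided. Lyn, named after its values were seen, had 151 ± 2.54 CPM in iMac, 170.1 ± 2.64 CPM in MCC and 25.9 ± 3.66 CPM in MEF, and is known to phosphorylate the gamma chain in macrophages. Fgr, a myeloid member of the family also named after its values were seen, was below the filter, with at most 1.10 CPM in any library. The 3 that fell were Src (log2 -2.70 ± 0.35 in iMac and -2.53 ± 0.35 in MCC), Fyn (-1.92 ± 0.16 and -1.43 ± 0.16) and Yes1 (-2.93 ± 0.18 and -2.06 ± 0.17). Ptprc, the CD45 phosphatase that keeps these kinases active, had 285 ± 5.24 CPM in iMac, 233 ± 20.5 CPM in MCC and 0.148 ± 0.173 CPM in MEF. Csk, the kinase that shuts them off, rose as well, by log2 1.45 ± 0.13 in iMac and 1.24 ± 0.13 in MCC.

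Among 19 tested adaptors and effectors next to Syk, 15 rose and 1 fell in iMac against MEF, with a median log2 fold change of 2.55. In MCC, 14 rose and 1 fell, with a median of 2.09. Btk, a kinase downstream of Syk, had 127 ± 1.40 CPM in iMac, 118 ± 5.90 CPM in MCC and 0.0258 ± 0.0364 CPM in MEF. Vav1 and the adaptor Lcp2 (SLP-76) rose by log2 11.43 ± 0.40 and 8.78 ± 0.45 in iMac. The phospholipases moved in opposite directions: Plcg2, the leukocyte form (named after its values were seen), had 199 ± 0.305 CPM in iMac, 212 ± 14.8 CPM in MCC and 7.51 ± 0.270 CPM in MEF. Plcg1, the 1 gene that fell, had 51.1 ± 0.351 CPM in iMac, 44.6 ± 5.96 CPM in MCC and 123 ± 5.56 CPM in MEF. For Vav1, Lcp2, Plcg1 and Plcg2 the log2 fold change in iMac against MCC lay between -0.09 and 0.20, where Syk had 0.83. In the same list Gab2 had 0.60 ± 0.10, Sh3bp2 0.56 ± 0.11 and Cbl 0.53 ± 0.09 (edgeR adjusted p 0.116, 0.133 and 0.112). DESeq2 called 4 of the 19 as higher in iMac than in MCC, where it called 6.41% of all genes tested as higher. Limma-voom called 0 of the 76 pathway genes there. Of the genes set beside Syk here, Plcg2, Gab2 and Sh3bp2 are named after their values were seen.

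Of 10 genes of PI3-kinase, 6 rose and 2 fell in both comparisons with MEF. The catalytic subunits of leukocytes, Pik3cd and Pik3cg, had 252 ± 1.99 and 127 ± 8.06 CPM in iMac, 234 ± 15.4 and 113 ± 19.3 CPM in MCC, and 6.11 ± 1.55 and 0.174 ± 0.137 CPM in MEF. The broadly expressed subunit Pik3ca was not called in iMac, with 93.2 ± 7.66 CPM in iMac, 68.3 ± 8.88 CPM in MCC and 86.8 ± 7.21 CPM in MEF. The genes of regulatory subunits divided. Pik3r6 rose by log2 8.82 ± 0.48 in iMac and 8.71 ± 0.48 in MCC against MEF. Pik3r5, named after its values were seen, rose by 5.01 ± 0.67 and 4.62 ± 0.66. The 2 genes that fell, Pik3r3 and Pik3r1, also encode regulatory subunits. Pik3r3, of whose exonic bases 24.3% are shared with Gm49337, had 3.96 ± 0.197 CPM in iMac, 7.59 ± 5.37 CPM in MCC and 63.5 ± 7.25 CPM in MEF. Pik3r1 had 82.7 ± 0.600 CPM in iMac, 77.7 ± 11.2 CPM in MCC and 172 ± 63.1 CPM in MEF; it was not called in iMac without MEF replicate 2 (log2 -0.64, edgeR adjusted p 0.0583) or without iMac replicate 1 or 2 (0.111 and 0.115), nor in MCC without MEF replicate 2 (0.0627), MCC replicate 2 (0.0959), or iMac replicate 1 or 2 (0.053 and 0.0531), nor with only the MCC and MEF libraries in the fit (0.0652).

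The inhibitory phosphatases and adaptors, through which Fcgr2b acts, rose in 5 of 9 tested cases and fell in 2 in iMac against MEF, and rose in 6 and fell in 2 in MCC. Inpp5d (SHIP1) had 328 and 331 CPM in iMac, 334 and 325 CPM in MCC, and 1.25 and 0.902 CPM in MEF. Its log2 fold change in iMac against MCC was 0.00 ± 0.14, where Fcgr2b itself had 1.24 ± 0.32; the difference between these 2 genes was not tested. Over the 9 tested genes of the list the value in iMac against MCC ran from -0.68 to 0.69, with a median of 0.00. Dok2 had 0.69 ± 0.19 and Inppl1 0.55 ± 0.12 (edgeR adjusted p 0.191 and 0.155). DESeq2 called 2 genes of the list as higher in iMac, where it called 6.41% of all genes tested as higher. Ptpn6 (SHP-1) had 261 ± 0.0381 CPM in iMac, 219 ± 4.11 CPM in MCC and 1.11 ± 0.539 CPM in MEF. Its relative Ptpn11 (SHP-2) was among the genes that fell, with 146 ± 3.12 CPM in iMac, 159.8 ± 6.25 CPM in MCC and 315 ± 63.0 CPM in MEF. Dok2 rose by log2 7.19 ± 0.25 in iMac and 6.50 ± 0.25 in MCC.

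Of 20 actin regulators of the phagocytic cup, 13 rose and 4 fell in both comparisons with MEF. The leukocyte genes Rac2 and Myo1f had 468 ± 34.4 and 501 ± 22.2 CPM in iMac and 337 ± 0.758 and 274 ± 30.2 CPM in MCC, with 2 reads of each in MEF. Was, the WASP protein of blood cells, had 119.9 ± 3.69 CPM in iMac, 110.4 ± 13.3 CPM in MCC and 0.0535 ± 0.0393 CPM in MEF. The GTPase Cdc42, used by most cells, had 681 ± 34.1 CPM in iMac, 643 ± 2.07 CPM in MCC and 553 ± 52.8 CPM in MEF and was not called (edgeR adjusted p 0.0713 in iMac and 0.161 in MCC). The 4 that fell were Nckap1, Wasl, Arpc1a and Myo10. Nckap1, a subunit of the WAVE complex, had 1.05 and 1.72 CPM in iMac, 19.9 and 2.57 CPM in MCC, and 260.0 and 255 CPM in MEF. The higher MCC value is in the library with more fibroblast marker RNA, and the part of that RNA in the result was not tested. Its relative Nckap1l, named after its values were seen, rose. It had 743 ± 7.89 CPM in iMac, 696 ± 55.5 CPM in MCC and 0.559 ± 0.244 CPM in MEF. Without iMac replicate 1, 11 of the 20 rose and 0 fell in iMac against MEF by edgeR, with Nckap1 at an adjusted p of 0.0501, Wasl at 0.0539, Myo10 at 0.0711 and Arpc1a at 0.265. Without iMac replicate 2, Wasl (0.0649), Myo10 (0.0965) and Arpc1a (0.204) were not called. Arpc1a was also lost in iMac against MEF with no filter (0.146), with a replicate block (0.0662), with only the groups compared (0.0636), and without MEF replicate 1 (0.072), MCC replicate 1 (0.0796) or MCC replicate 2 (0.0823). In MCC against MEF, Arpc1a and Myo10 were lost with only the groups compared (0.0961 and 0.0686), without MCC replicate 2 (0.143 and 0.128), and without iMac replicate 1 (0.063 and 0.0558) or 2 (0.0633 and 0.0559). There Arpc1a was also lost without MCC replicate 1 (0.0745), Myo10 without MEF replicate 1 (0.057) and Nckap1 without MEF replicate 2 (0.0568).

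In iMac against MCC, none of the 76 pathway genes passed the adjusted threshold in edgeR, 17 had an unadjusted p under 0.05 (18.2% of all genes tested did), and DESeq2 called 17 (14.7% of all genes) and limma-voom 0. The median log2 fold changes of the 7 lists ran from -0.30 for the other Fc receptors to 0.43 for the partner chains, beside -0.02 over all genes tested and 0.75 for the 7 members of the receptor set. Counts with a library left out are given at the end, beside those over all genes.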

How the data were processed

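Counts of reads per gene for 6 libraries were used as deposited. Per the submitters' processing notes the authors used STAR, featureCounts and the mm10 genome; no version, annotation, strand setting or rule for multiply matching reads is stated there. Per the labels' protocols, Trizol RNA went into an mRNA-seq library kit. Of 30445 symbols, 29529 were matched to GENCODE M21 (GRCm38) for positions and exon lengths.

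Genes were tested with edgeR 4.0.16 (filterByExpr, TMM scaling, two-sided quasi-likelihood test, group as sole term, all 6 libraries, 3 residual degrees of freedom, prior count 0.125). The filter removed 11832 genes and left 18613, the set for Benjamini-Hochberg adjustment, with a threshold of 0.05. Each SE was derived from the F statistic. Alternatives were median-ratio size factors, library totals without scaling, DESeq2 1.42.0, limma-voom (limma 3.58.1), no filter, at least 5 CPM in 2 libraries, a replicate block, only the groups compared, each library left out, Fcgr2b and Fcgr3 summed, the longest transcript as length, and a pseudocount of 1 in place of 0.5 for likeness. Scripts were tested on simulated data. Counting intervals (95%) and the floor of 3 counts cover counting error only. Promoter windows come from RefSeq (GRCm38.p6), and all 7 members had one.

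The members and lists were chosen with earlier results of these data known. Named were the 7 members, from each list up to 4 called genes with the largest change in iMac against MEF, up to 3 with the highest mean CPM, those called against the majority, and the 3 genes most like each member. Some genes that this rule picks are not reported here. No protein sequences were used here.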

Additional observations from a re-analysis of the deposited data

How the results depend on the processing

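All results for the 7 members kept their direction under the alternatives run for them: 287 values stayed on the same side of the threshold and 13 passed it where the main value had not, all 13 in iMac against MCC. There, members called numbered 5 by DESeq2, 2 by limma-voom, 1 with no filter and 5 with only the groups compared, against 0 in the main test. Genes called in that comparison numbered 4, against 2734 by DESeq2, 146 by limma-voom, 89 with no filter, 1364 with only the groups compared and 0 to 1202 with each library left out; the highest was without MCC replicate 2 (66 higher and 1136 lower in iMac), and 2 were called without MCC replicate 1. Pathway genes called there numbered 17 by DESeq2, 1 with no filter, 14 with only the groups compared and 0 to 5 with each library left out. The cause of these shifts was not tested. In iMac against MEF, genes called numbered 10717, and 5173 to 10695 with each library left out, the lowest without iMac replicate 1 and 5197 without iMac replicate 2; a group left with 1 library is assumed to vary like the others. Likeness with a pseudocount of 1 kept 8 of 21 genes.

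The labels do not say whether replicate numbers pair the samples. Same-numbered libraries correlated in their deviations by 0.115 between MCC and MEF, -0.00941 between iMac and MEF and -0.000965 between iMac and MCC. With 2 libraries a group, these values cannot decide whether same-numbered libraries share a culture or batch. With the replicate block, 0 genes were called in iMac against MCC, 9908 in iMac against MEF and 9022 in MCC against MEF, and 7 of 7 members were called in each comparison with MEF. In MEF the depth limits 5 members, which had 3 to 25 reads over the group.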
